A study of Mus musculus with 6 samples.

Results

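The genes described are *Bambi*, which encodes a pseudoreceptor, and 9 receptors and co-receptors of the TGF-β superfamily with which its product can share complexes. They were chosen by symbol, and all 10 were found among the 39179 genes in the count tables. *Tgfbr1*, *Acvr1*, *Acvr1b* and *Bmpr1a* encode type I receptors, *Tgfbr2*, *Acvr2a* and *Bmpr2* encode type II receptors, and *Tgfbr3* and *Eng* encode co-receptors. Whole bone marrow RNA was sequenced from 6 littermates, of which 3 were *MxCDX2* mice and 3 were controls. The *MxCDX2* mice were *RsCDX2::Mx1Cre*: they carried the *RsCDX2* knockin, in which the human *CDX2* coding sequence lies behind a stop sequence flanked by loxP sites in the *Rosa26* locus, together with the *Mx1Cre* transgene. Control 1 was an *RsCDX2* mouse, control 2 an *Mx1Cre* mouse and control 3 a wild-type mouse, so each control genotype was present in a single animal. Poly(I:C) was injected 3 times into every mouse at 10 µg per g of body weight at 3 months of age, and RNA was prepared 6 weeks later. The *Mx1* promoter responds to interferon, which poly(I:C) induces, and is not restricted to a single cell type. The RNA was that of whole bone marrow, so that fewer cells of a type and less RNA per cell cannot be told apart in any value below.

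Ligands of the TGF-β superfamily (TGF-βs, activins, BMPs and growth and differentiation factors) bind pairs of type II and type I serine/threonine kinase receptors on the cell surface. The type II receptor phosphorylates the type I receptor, which in turn phosphorylates SMAD proteins that enter the nucleus and regulate transcription. TGFBR2 and TGFBR1 form the TGF-β receptor, ACVR2A and ACVR1B bind activins, and BMPR2, BMPR1A and ACVR1 bind BMPs. TGFBR3 (betaglycan) and ENG (endoglin) have no kinase activity and present ligands to the signalling receptors. BAMBI resembles a type I receptor but lacks the intracellular kinase domain, and receptor complexes that contain it do not signal. In bone marrow, TGF-β restrains the cycling of hematopoietic progenitors and acts on the maturation of myeloid and erythroid cells.

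Between 38646101 and 49899650 reads per mouse were counted on genes. Values given as normalized counts are scaled to the mean library size of the 6 mice after TMM normalization. The quasi-likelihood test of edgeR was applied to the 15980 genes with sufficient counts, and adjusted p-values are Benjamini-Hochberg values over these genes. Mouse *Cdx2*, on which reads of the human transgene may have been counted, had 4, 0 and 0 raw counts in controls 1, 2 and 3, against 152, 155 and 183 in *MxCDX2* mice 1, 2 and 3. Reads of the transgene and of the mouse gene cannot be told apart in these counts. All 10 members were among the tested genes.

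Upstream sequences are shown for 3 receptor genes, 1 that was upregulated, 1 that did not pass the test and 1 that was lower in *MxCDX2* mice, to give the base composition of the regions from which they are transcribed. Each is the 250 bases before the start of transcription in RefSeq (GRCm38.p6), printed from 5′ to 3′ on the strand of the gene, with CpG dinucleotides in capitals. They lie at chr2:48813859-48814108 on the plus strand (*Acvr2a*), chr4:47352972-47353221 on the plus strand (*Tgfbr1*) and chr9:116175364-116175613 on the minus strand (*Tgfbr2*), outside every exon of GENCODE M21.
Acvr2a: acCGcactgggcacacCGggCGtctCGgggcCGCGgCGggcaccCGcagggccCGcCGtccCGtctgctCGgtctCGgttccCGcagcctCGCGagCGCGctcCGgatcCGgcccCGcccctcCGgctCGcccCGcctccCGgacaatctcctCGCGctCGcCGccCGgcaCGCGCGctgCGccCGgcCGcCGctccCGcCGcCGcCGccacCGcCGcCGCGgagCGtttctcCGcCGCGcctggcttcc
Tgfbr1: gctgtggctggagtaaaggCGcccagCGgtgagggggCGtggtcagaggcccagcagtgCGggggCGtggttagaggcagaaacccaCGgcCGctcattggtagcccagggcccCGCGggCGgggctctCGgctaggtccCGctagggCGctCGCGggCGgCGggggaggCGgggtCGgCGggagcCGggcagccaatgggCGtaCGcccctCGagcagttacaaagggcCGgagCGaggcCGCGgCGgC
Tgfbr2: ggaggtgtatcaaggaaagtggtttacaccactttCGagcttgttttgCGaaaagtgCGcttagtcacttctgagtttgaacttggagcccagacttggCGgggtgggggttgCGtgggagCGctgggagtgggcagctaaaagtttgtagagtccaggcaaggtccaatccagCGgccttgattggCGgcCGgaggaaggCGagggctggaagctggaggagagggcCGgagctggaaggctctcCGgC
The *Acvr2a* sequence held 49 CpG dinucleotides and 82% G and C, the *Tgfbr1* sequence 29 and 74.8%, and the *Tgfbr2* sequence 12 and 58.4%. RefSeq windows of 300 bases (250 before and 50 after a start) were found for 8 of the 10 members, all but *Bambi* and *Tgfbr3*, with a second start for *Tgfbr1*. Across these windows the CpG count was 54 for *Acvr2a*, 51 for *Acvr1* and *Acvr1b*, 48 for *Bmpr1a*, 34 and 3 for the *Tgfbr1* starts, 23 for *Bmpr2*, 15 for *Tgfbr2* and 6 for *Eng*. The median over all 32851 such windows was 7, and 94.6% of them held at least 1 CpG. The core letters of CDX binding motifs, ATAAA or TTTAT (the same site on the other strand), were in none of the windows of these 8 members and in 40.0% of all windows. These letters are all A and T, and the windows differed in base composition. The median of all windows was 52.67% G and C, against 52% at the second *Tgfbr1* start and 59% to 83.67% in the other windows of the members. The part of base composition in this absence was not tested, and only these 300 bases were searched. The sequence before the start of *Bambi* was not analysed here.

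Of the 10 members, 3 were upregulated and 2 downregulated in *MxCDX2* bone marrow by the thresholds of the study's methods, a log2 fold change beyond 1 in either direction with an adjusted p-value below 0.05. Across all tested genes, 4.59% were upregulated and 9.03% downregulated by the same rule. With the adjusted p-value alone, 5 members were higher and 3 lower, against 9.91% and 11.8% of all genes. The upregulated members were *Bambi*, *Acvr1* and *Acvr2a*, and the downregulated members were *Bmpr1a* and *Tgfbr3*. *Acvr1b* and *Bmpr2* were higher and *Tgfbr2* lower by less than the fold threshold, and *Tgfbr1* and *Eng* did not pass the test. In 5 members every *MxCDX2* mouse lay above every control mouse, which was so for 21.4% of all genes, and in 3 members every *MxCDX2* mouse lay below, which was so for 20.7%. The median log2 fold change was 0.43 over the 10 members, 0.87 over the 7 signalling receptors (the type I and type II receptors) and -0.01 over the 9 receptors and co-receptors, beside 0.00 over all tested genes. With 3 mice against 3, an exact permutation test of a single gene cannot give a two-sided p below 0.10, and 8 of the 10 members had this value.

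**Figure D1:**
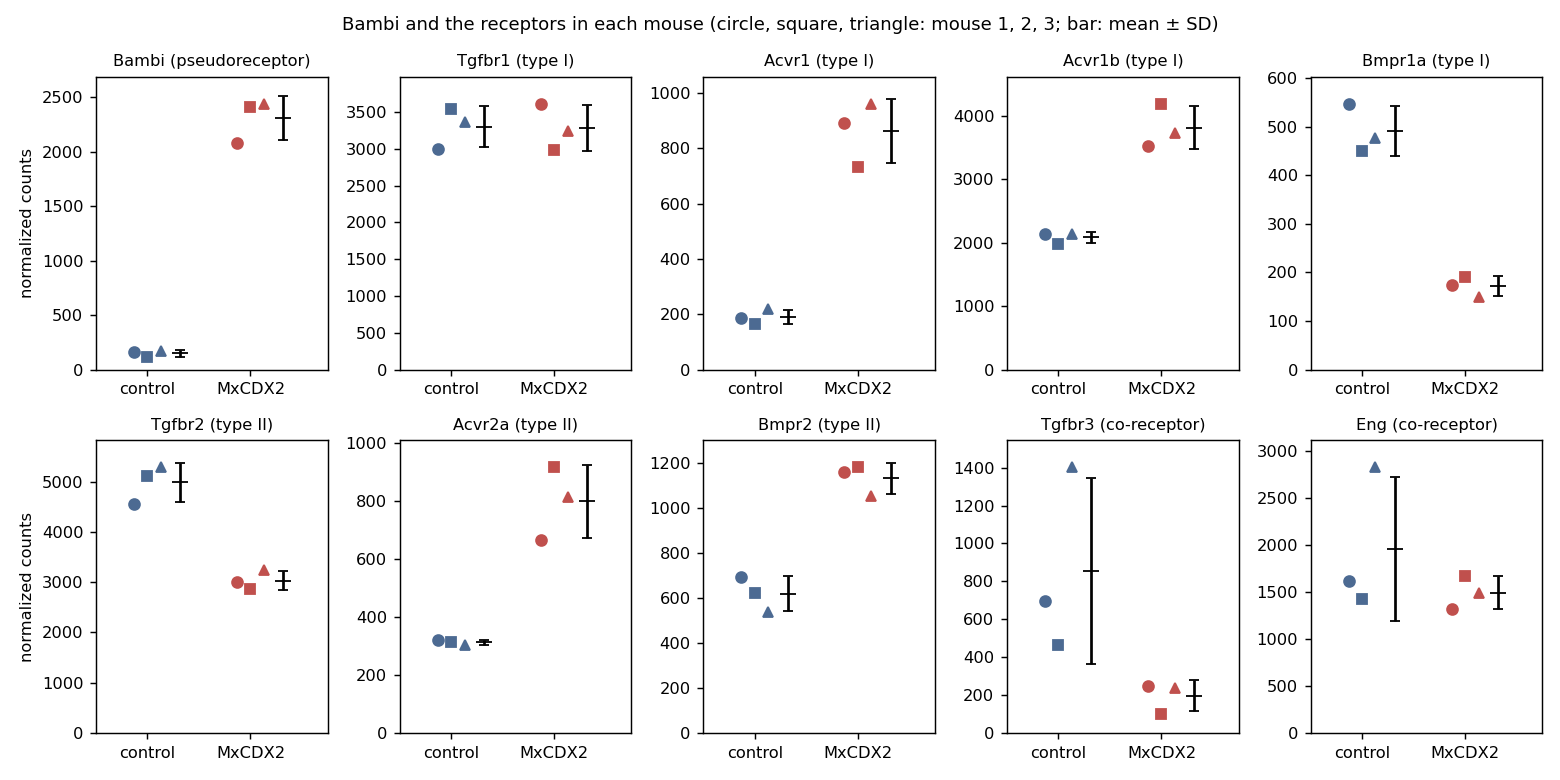
Normalized counts (y axes, from 0) of *Bambi* and the 9 receptors and co-receptors in each of the 3 control mice (blue) and 3 *MxCDX2* mice (red), with circles, squares and triangles for mouse 1, 2 and 3 and bars for the mean ± SD. The groups are apart in 8 panels, 5 higher and 3 lower in *MxCDX2* mice, and overlap for *Tgfbr1* and *Eng*, and the wild-type control (blue triangle) is the highest mouse for *Tgfbr3* and *Eng*.

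*Bambi* (ENSMUSG00000024232, GRCm38 chr18:3507923-3516404, plus strand) had 158, 115 and 172 normalized counts in controls 1, 2 and 3, against 2082, 2413 and 2443 in *MxCDX2* mice 1, 2 and 3. The lowest *MxCDX2* mouse was far above the highest control mouse, and the spread within each group was small beside the gap between them. The fold was 15.5, with a log2 fold change of 3.96 (SE 0.20, 95% interval 3.49 to 4.43, edgeR adjusted p = 0.000695). Among the 15980 genes *Bambi* ranked 7 by p-value and 83 by the size of its rise. Its fold exceeded that of the summed counts of the 6 monocyte markers given below. Per 1000 normalized counts of those markers, *Bambi* had 3.70, 2.63 and 4.70 in controls 1, 2 and 3, against 13.2, 12.4 and 14.0 in *MxCDX2* mice. This scale was chosen after the values were seen, marker counts are not cell counts, and the part of cell type numbers in the level of *Bambi* was not tested.

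Among the type I receptors, *Acvr1* and *Acvr1b* were higher in *MxCDX2* mice, *Bmpr1a* was lower and *Tgfbr1* overlapped between the groups. *Acvr1* (ALK2), a BMP receptor, had 185, 166 and 218 normalized counts in controls 1, 2 and 3, against 893, 734 and 961 in *MxCDX2* mice 1, 2 and 3. All 3 *MxCDX2* mice were above the control mice, and the log2 fold change was 2.18 (SE 0.20, edgeR adjusted p = 0.00174), a fold of 4.54. *Acvr1b* (ALK4), through which activins signal, had 2137, 1984 and 2132 in the control mice and 3529, 4189 and 3724 in the *MxCDX2* mice. The control mice were within a narrow range (SD 87.0, n = 3) and the groups were apart, with a log2 fold change of 0.87 (SE 0.10, edgeR adjusted p = 0.00318).

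*Bmpr1a* (ALK3), another BMP type I receptor, moved in the opposite direction to *Acvr1*. It had 547, 449 and 477 normalized counts in controls 1, 2 and 3, against 175, 190 and 149 in *MxCDX2* mice 1, 2 and 3. No *MxCDX2* mouse came near the lowest control mouse, and the log2 fold change was -1.52 (SE 0.20, edgeR adjusted p = 0.00406). *Tgfbr1* (ALK5), the type I receptor for TGF-β, had 2995, 3537 and 3365 in the control mice and 3611, 2989 and 3244 in the *MxCDX2* mice. The groups overlapped, and the log2 fold change was -0.01 with a 95% interval of -0.28 to 0.27 (edgeR adjusted p = 0.970). Its sign depended on how libraries were scaled, and was positive (0.10) with total counts.

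Of the type II receptors, *Acvr2a* and *Bmpr2* were higher and *Tgfbr2* was lower in *MxCDX2* mice. *Acvr2a*, a type II receptor for activins and BMPs, had 319, 314 and 302 normalized counts in controls 1, 2 and 3, against 665, 916 and 811 in *MxCDX2* mice 1, 2 and 3. The control mice were nearly alike (SD 9.04, n = 3) and all *MxCDX2* mice were above them. The log2 fold change was 1.36 (SE 0.18, edgeR adjusted p = 0.00401). Exons of *Acvr2a* overlap those of *Orc4* on the opposite strand, and whether reads were counted by strand is not given in the sources used here. *Orc4* itself had a log2 fold change of -0.05 (edgeR adjusted p = 0.828).

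*Bmpr2*, the type II receptor for BMPs, had 694, 623 and 538 normalized counts in controls 1, 2 and 3, against 1161, 1181 and 1052 in *MxCDX2* mice 1, 2 and 3. The groups were apart, with a log2 fold change of 0.87 (SE 0.15, edgeR adjusted p = 0.00942). *Tgfbr2*, the ligand-binding receptor for TGF-β, had 4559, 5114 and 5293 in the control mice and 3004, 2863 and 3237 in the *MxCDX2* mice. All *MxCDX2* mice were lower than all control mice, and the log2 fold change was -0.72 (SE 0.10, edgeR adjusted p = 0.00531). The TGF-β receptor genes thus differed from each other, *Tgfbr2* being lower and *Tgfbr1* overlapping, and the ratio of *Tgfbr2* to *Tgfbr1* within a mouse is given with the levels per length.

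The co-receptors varied more between control mice than any signalling receptor. *Tgfbr3* had 695, 464 and 1403 normalized counts in controls 1, 2 and 3, against 247, 101 and 239 in *MxCDX2* mice 1, 2 and 3. All *MxCDX2* mice were below the control mice, but the controls had a coefficient of variation of 57.3%. The log2 fold change was -2.13 (SE 0.52, edgeR adjusted p = 0.0298). Leaving out 1 mouse ended the call without control 1 (-2.24, edgeR adjusted p = 0.0543) and without *MxCDX2* mouse 1 (-2.32, 0.0602), 2 (-1.81, 0.0755) or 3 (-2.29, 0.0827), and it was kept without control 2 or control 3.

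*Eng* had 1619, 1427 and 2834 normalized counts in controls 1, 2 and 3, against 1318, 1677 and 1494 in *MxCDX2* mice 1, 2 and 3. The wild-type control was the highest mouse and the other mice of both groups overlapped. The log2 fold change was -0.39 with a 95% interval of -1.03 to 0.25 (edgeR adjusted p = 0.350), and -0.01 without the wild-type control (edgeR adjusted p = 0.983). Exons of *Eng* overlap those of *Fpgs* on the opposite strand, which had a log2 fold change of -0.70 (edgeR adjusted p = 0.0654).

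The wild-type control stood apart from the other control mice in the second principal component of all genes, which held 15.9% of the variance, and also in markers of other cell types. The level of *Tgfbr3* in this mouse was 2.42 times and that of *Eng* 1.86 times the mean of the other 2 control mice, whereas for the other 8 members this ratio lay between 0.817 and 1.26. The summed normalized counts of 6 megakaryocyte markers were 265080 in this mouse, against 32068 and 22584 in controls 1 and 2, and those of 6 stromal and 7 endothelial markers were 2.38 and 2.21 times the mean of the others. Their part in the values of *Tgfbr3* and *Eng* was not tested. Without this mouse, the same numbers of members passed as with all mice, 3 upregulated and 2 downregulated.

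**Figure D2:**
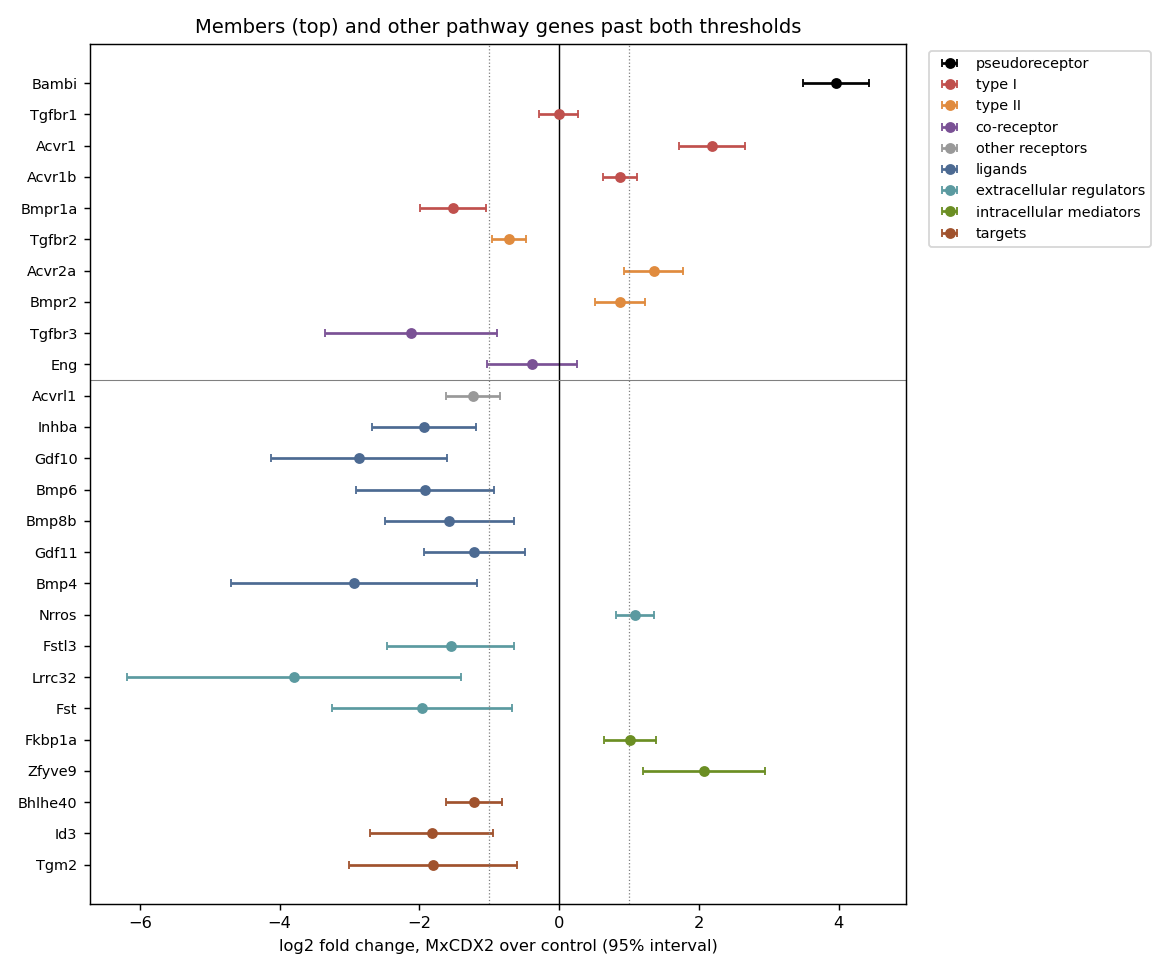
Log2 fold change of *MxCDX2* over control mice (x axis, with 95% interval from edgeR's quasi-likelihood test, n = 3 mice per group) for the 10 members above the grey line and for the 16 other pathway genes past both thresholds below it, coloured by role. Dotted lines mark log2 fold changes of -1 and 1: *Bambi* (3.96), *Acvr1* (2.18) and *Zfyve9* (2.07) have intervals wholly above 1, and 13 of the 16 other genes lie below 0.

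Levels were compared between genes after division by exon length, as CPM (counts scaled to a common library size) per kb of exon, since a longer transcript collects more reads. The length was the union of all annotated exons, which need not match the transcripts present, and the order of genes depends on it. In control mice the order was *Tgfbr2* (13.4 ± 1.03), *Tgfbr1* (11.1 ± 0.932), *Eng* (10.6 ± 4.14), *Acvr1b* (10.4 ± 0.433), *Tgfbr3* (2.87 ± 1.64), *Bmpr1a* (1.70 ± 0.175), *Acvr2a* (1.21 ± 0.0349), *Acvr1* (0.864 ± 0.120), *Bmpr2* (0.756 ± 0.0955) and *Bambi* (0.644 ± 0.129) (mean ± SD, n = 3). *Eng* varied so much that its values spanned those of *Tgfbr2*, and it was above *Tgfbr2* in the wild-type control. The values of *Tgfbr1*, *Eng* and *Acvr1b* overlapped between neighbours in this order, as did those of *Tgfbr3* and *Bmpr1a* and those of *Acvr1*, *Bmpr2* and *Bambi*. *Bambi* was thus among the 3 lowest of the 10 genes, with values that overlapped those of *Bmpr2* and lay just under those of *Acvr1*.

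In *MxCDX2* mice the order of the levels per length was *Acvr1b* (19.0 ± 1.69), *Tgfbr1* (11.0 ± 1.05), *Bambi* (10.0 ± 0.869), *Tgfbr2* (8.15 ± 0.507), *Eng* (8.13 ± 0.976), *Acvr1* (3.93 ± 0.531), *Acvr2a* (3.08 ± 0.487), *Bmpr2* (1.38 ± 0.0854), *Tgfbr3* (0.658 ± 0.276) and *Bmpr1a* (0.593 ± 0.0721) (mean ± SD, n = 3). *Bambi* moved from place 10 to place 3, with values that overlapped those of *Tgfbr1* and lay above those of *Tgfbr2* in all 3 mice. *Tgfbr2*, which had the highest mean in the control mice, was at place 4, where it overlapped *Eng*. *Acvr1b* was above every other member in all 3 *MxCDX2* mice.

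**Figure D3:**
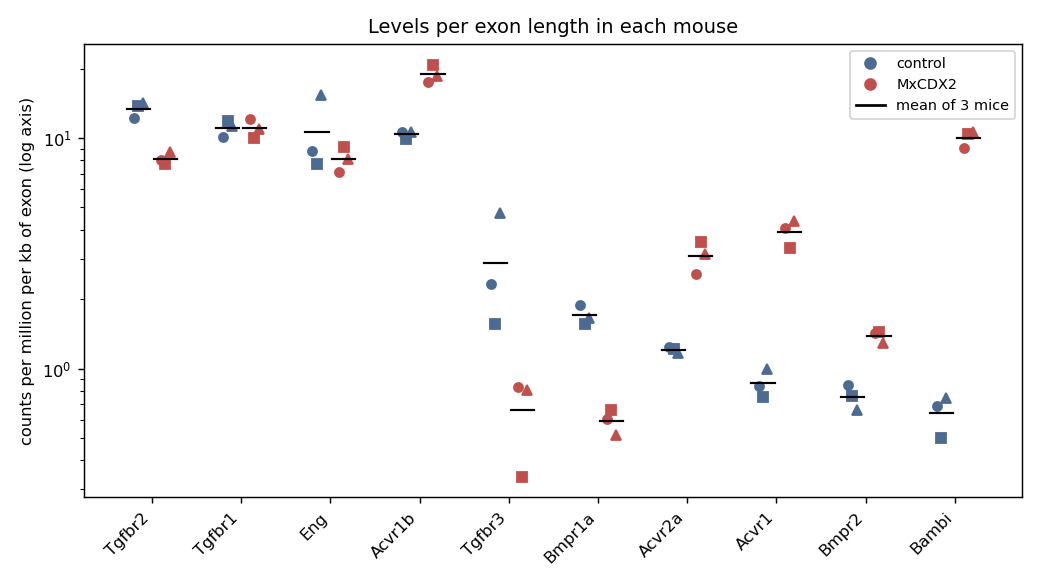
Level of each member in CPM per kb of exon (log y axis), ordered by the mean in control mice (blue) beside the *MxCDX2* mice (red), with a point per mouse and a black line at the mean of 3 mice. *Bambi*, at the right, goes from the lowest mean in control mice (0.644) to a level in *MxCDX2* mice (10.0) that overlaps that of *Tgfbr1* (11.0).

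The relation of *Bambi* to the receptors was also read within each mouse, where a ratio of genes does not depend on how libraries are scaled to each other. Per 100 units of the summed level of the 7 signalling receptors, *Bambi* had 1.82, 1.25 and 1.84 in controls 1, 2 and 3, against 19.4, 22.0 and 22.3 in *MxCDX2* mice 1, 2 and 3. The lowest *MxCDX2* mouse was above every control mouse, and the ratio of the means was 13.0 (two-sided exact permutation test, p = 0.10, the smallest possible). The level of *Bambi* relative to *Tgfbr2* was 0.0561, 0.0363 and 0.0525 in the control mice and 1.12, 1.36 and 1.22 in the *MxCDX2* mice. Per length, *Bambi* was thus below *Tgfbr2* in every control mouse and above it in every *MxCDX2* mouse. Without division by length it was below *Tgfbr2* in the *MxCDX2* mice too (2082, 2413 and 2443 against 3004, 2863 and 3237 normalized counts). Relative to *Tgfbr1*, its mean was 0.0587 in control and 0.917 in *MxCDX2* mice. *Bambi* rose also relative to *Acvr1*, the receptor with the largest rise, from a mean of 0.743 to 2.59. All of these ratios were apart between the groups.

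The make-up of the signalling receptors per length differed between the groups. *Tgfbr1* and *Tgfbr2* together made up 59.1%, 64.4% and 62.9% of the 7 receptors in controls 1, 2 and 3, against 43.5%, 37.3% and 41.3% in *MxCDX2* mice. *Acvr1b* went from 26.4% ± 1.68 to 40.2% ± 3.17 (SD, n = 3), and *Tgfbr2* from 34.0% ± 1.37 to 17.3% ± 1.08. The 4 type I receptors among the members summed to 24.0 ± 0.566 in control and 34.6 ± 0.314 CPM per kb in *MxCDX2* mice. The 3 type II receptors among the members summed to 15.4 ± 0.908 and 12.6 ± 0.530 (SD, n = 3). Each of these measures was apart between the groups (exact permutation test, two-sided p = 0.10). The sums and shares cover the members alone. They leave out *Acvrl1*, another type I receptor, which had means of 3904 normalized counts in control and 1661 in *MxCDX2* mice.

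Within pairs of receptors, the ratio of *Acvr1* to *Bmpr1a*, both BMP type I receptors, was 0.446, 0.486 and 0.601 in controls 1, 2 and 3, against 6.72, 5.08 and 8.49 in *MxCDX2* mice 1, 2 and 3. *Bmpr1a* was the higher of the pair in every control mouse and *Acvr1* in every *MxCDX2* mouse. The ratio of *Tgfbr2* to *Tgfbr1* was 1.21, 1.15 and 1.26 in the control mice and 0.664, 0.764 and 0.796 in the *MxCDX2* mice, so the TGF-β receptor chains changed order too. Among type II receptors, *Acvr2a* relative to *Tgfbr2* went from a mean of 0.0904 to 0.380. The co-receptors summed to 13.5 ± 5.78 in control and 8.79 ± 0.740 CPM per kb in *MxCDX2* mice (SD, n = 3), and the groups overlapped (exact permutation test, two-sided p = 0.20).

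**Figure D4:**
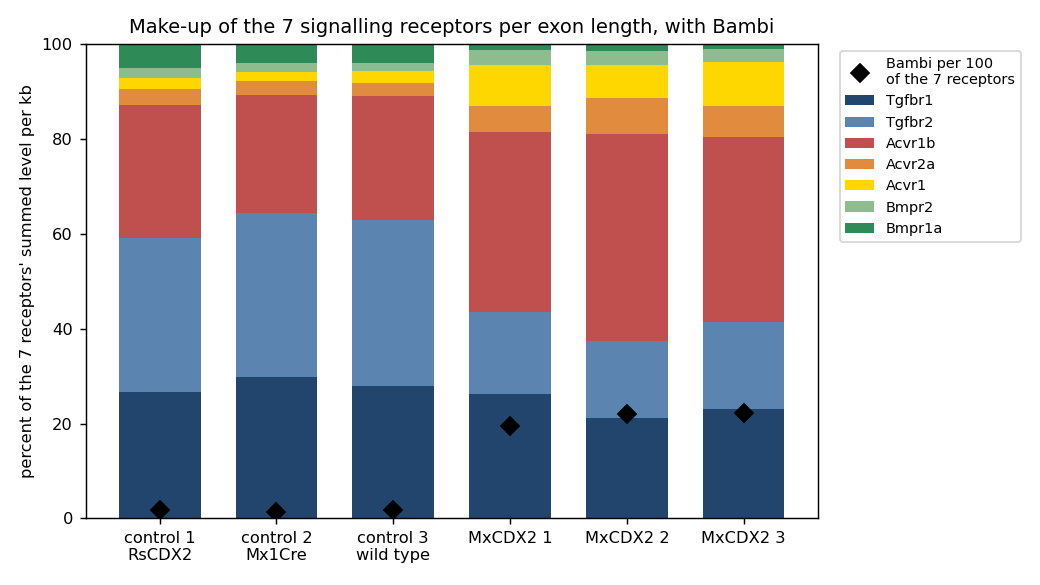
Stacked bars give the percent of the summed level per kb of exon of the 7 signalling receptors (y axis, from 0) held by each receptor in each mouse, and black diamonds give the level of *Bambi* per 100 of that sum on the same axis. The *Tgfbr1* and *Tgfbr2* segments (blue) together shrink from 59.1% to 64.4% in control mice to 37.3% to 43.5% in *MxCDX2* mice, while *Acvr1b* (red) widens and *Bambi* goes from at most 1.84 to at least 19.4.

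Markers of blood cell types moved between the groups along with the members. The summed normalized counts of 6 monocyte markers were 42841, 43827 and 36679 in controls 1, 2 and 3, against 157970, 194370 and 174710 in *MxCDX2* mice 1, 2 and 3, and 3 of the 6 were upregulated and none downregulated. All 6 erythroid markers were downregulated, and their sums went from 271900 to 351990 in control mice to 12771 to 54799 in *MxCDX2* mice. Among the others, 3 of 6 megakaryocyte, 3 of 6 neutrophil, 2 of 5 B-cell, 2 of 6 stromal, 2 of 7 endothelial and 1 of 6 T-cell and NK-cell markers were downregulated and none upregulated. By the same rule, 9.03% of all genes were downregulated and 4.59% upregulated. Of 5 progenitor markers, 0 passed both thresholds, while *Cd34* (0.91) was higher and *Kit* (-0.69) lower in every *MxCDX2* mouse than in every control mouse. No marker was at 0 in all mice, and *Ptprc*, the common leukocyte antigen, had a log2 fold change of -0.02.

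The higher members were also set against the monocyte markers, and the result depended on which markers were used. Per 1000 normalized counts of the 6 markers, *Acvr1* had 4.33, 3.78 and 5.94 in controls 1, 2 and 3, against 5.65, 3.78 and 5.50 in *MxCDX2* mice 1, 2 and 3. The groups overlapped, with a ratio of the means of 1.06 (exact permutation test, two-sided p = 1.0). *Acvr2a* went from a mean of 7.61 to 4.52 on this scale, *Acvr1b* from 51.1 to 21.7 and *Bmpr2* from 15.0 to 6.48, so each of these rose by less than the sum of the 6. That sum was mostly *Ly6c2*, *Ccr2* and *Csf1r*, the 3 upregulated markers, which held 86.0% ± 5.06 of it in control and 95.1% ± 0.216 in *MxCDX2* mice (SD, n = 3). The other 3 markers moved less, with folds of 1.77 for *Cd68*, 1.07 for *Cx3cr1* and 1.06 for *Fcgr1*. Per 1000 normalized counts of these 3, *Acvr1* had 41.5, 31.9 and 30.0 in controls 1, 2 and 3, against 119.5, 78.6 and 107 in *MxCDX2* mice 1, 2 and 3, and *Acvr2a* went from a mean of 57.8 to 92.5, both apart between the groups. *Acvr1b* and *Bmpr2* overlapped on this scale. *Bambi* was higher in every *MxCDX2* mouse than in every control mouse on both scales, with means of 3.67 and 13.2 per 1000 counts of the 6 markers and 27.1 and 270 per 1000 counts of the 3. The part of cell type numbers in the level of each member was not tested beyond these values, and both scales were chosen after the values were seen. The second scale was made of the markers that were not upregulated in these same mice, and their sum had a fold of 1.52. By that choice, members keep more of their unscaled rise on it than on the scale of all 6 markers.

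The genes whose pattern was most like that of *Bambi* were found by the root mean square difference of log2 CPM over the 6 mice, each gene centred on its own mean, among 13228 genes whose mean reached 1 CPM. In order they were *Mok* (difference 0.151), which encodes a protein kinase of the MAP kinase family, *Fzd1* (0.285), a Wnt receptor, *Gria3* (0.286), a glutamate receptor subunit, *Qpct* (0.300), glutaminyl-peptide cyclotransferase, and *Slc36a2* (0.315), an amino acid transporter. *Mok* had 23.0, 21.8 and 29.2 normalized counts in controls 1, 2 and 3, against 450, 466 and 454 in *MxCDX2* mice 1, 2 and 3. *Fzd1* had 174, 76.5 and 165 in the control mice and 2464, 2039 and 2768 in the *MxCDX2* mice, with its lowest control value, like that of *Bambi*, in control 2. All 5 had every *MxCDX2* mouse above every control mouse, with log2 fold changes of 3.74 to 4.20, which follows from their choice by likeness to *Bambi*. No test was made of the likeness.

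**Figure D5:**
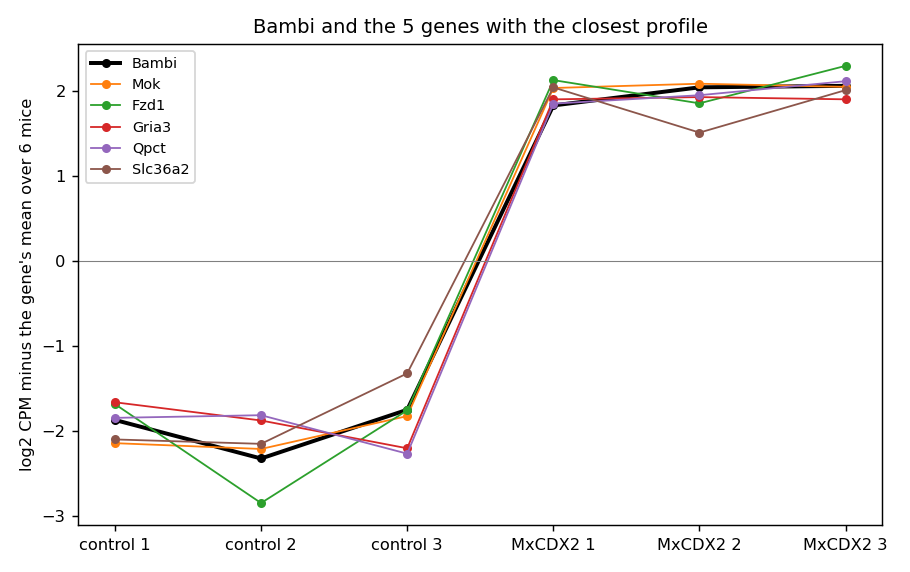
Log2 CPM minus each gene's mean over the 6 mice (y axis) in each mouse (x axis) for *Bambi* (black) and the 5 genes with the smallest root mean square difference from it (0.151 to 0.315). The 5 were chosen for this likeness, so all 6 lines are below 0 in the 3 control mice and above 0 in the 3 *MxCDX2* mice. *Mok* runs closest to *Bambi*.

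Among 73 other genes of the pathway, 58 had sufficient counts to be tested, and 3 were upregulated and 13 downregulated, with a median log2 fold change of -0.57 beside 0.00 over all genes. The shares of all genes by the same rule were 4.59% upregulated and 9.03% downregulated, so the 3 upregulated genes were close to the share of all genes. All 3 upregulated genes were an extracellular regulator or intracellular mediators, and the 13 downregulated genes were 6 ligands, 3 extracellular regulators, 3 target genes and 1 receptor. Of the other receptors, 3 of 5 were tested and *Acvrl1* (ALK1), a type I receptor known from endothelial cells, was downregulated. It had 4189, 3269 and 4253 normalized counts in controls 1, 2 and 3, against 1915, 1681 and 1386 in *MxCDX2* mice 1, 2 and 3, with a log2 fold change of -1.23 (SE 0.16, edgeR adjusted p = 0.00431). The groups were apart. Of the 7 endothelial markers, *Cdh5* (-1.73) and *Stab2* (-1.96) were downregulated, and the median log2 fold change of the list was -1.35. The summed list overlapped between the groups (5556 to 12515 in control and 5834 to 6862 in *MxCDX2* mice), but most of it was *Pecam1*, also found on leukocytes and platelets, and the sum of the other 6 markers was 2342, 2228 and 6134 in controls 1, 2 and 3, against 1178, 1028 and 1301 in *MxCDX2* mice 1, 2 and 3. This sum was formed after the values were seen. Like *Acvrl1*, it was below the control mice in every *MxCDX2* mouse. The sum was highest in the wild-type control, where *Acvrl1* (4253) was close to its value in control 1 (4189). The part of endothelial cells in the level of *Acvrl1* was not tested.

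Of 20 ligands, 14 were tested, 6 were downregulated and none was upregulated, beside 9.03% and 4.59% of all genes, with a median log2 fold change of -1.25. The downregulated ligands were *Inhba*, the subunit of activin A (-1.94), *Gdf10* (-2.86), *Bmp6* (-1.92), a regulator of iron balance, *Bmp8b* (-1.57), *Gdf11* (-1.21) and *Bmp4* (-2.93). *Bmp4* was highest in the wild-type control, with 47.3, 79.4 and 294 normalized counts in controls 1, 2 and 3, against 15.9, 23.5 and 15.7 in *MxCDX2* mice 1, 2 and 3, and its log2 fold change was -1.77 without that mouse. *Inhba* had 1218, 950 and 555 normalized counts in controls 1, 2 and 3, against 265, 248 and 198 in *MxCDX2* mice 1, 2 and 3, and was apart between the groups (edgeR adjusted p = 0.00783). *Bmp8b* and *Gdf10* were low, at no more than 29.2 and 66.6 normalized counts in any mouse. *Tgfb1*, the ligand with the highest counts, had 7007, 8125 and 15437 in the control mice and 12005, 12977 and 13295 in the *MxCDX2* mice, and overlapped between the groups (log2 fold change 0.32, edgeR adjusted p = 0.477).

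Of 20 extracellular regulators, 19 were found and 14 tested, with 1 upregulated and 3 downregulated, beside 4.59% and 9.03% of all genes. *Nrros*, which anchors latent TGF-β1 on myeloid cells, was upregulated, with 10185, 9503 and 8739 normalized counts in controls 1, 2 and 3, against 20027, 18911 and 21521 in *MxCDX2* mice 1, 2 and 3 (log2 fold change 1.09, SE 0.11, edgeR adjusted p = 0.00234). *Lrrc32*, which anchors latent TGF-β on platelets and regulatory T cells, was downregulated (-3.79, SE 1.00, edgeR adjusted p = 0.0391), with 824, 727 and 5247 in the control mice and 211, 46.0 and 233 in the *MxCDX2* mice. Its highest value was in the wild-type control, the mouse with the highest megakaryocyte marker sum, and its log2 fold change was -2.23 without that mouse. The activin antagonists *Fst* (-1.96, and -1.37 without the wild-type control) and *Fstl3* (-1.55) were downregulated as well.

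Of 16 intracellular mediators, 15 were tested and 2 were upregulated, beside 4.59% of all genes. *Zfyve9* (SARA), which brings SMAD2 and SMAD3 to the receptor, had 203, 312 and 279 normalized counts in controls 1, 2 and 3, against 597, 1466 and 1282 in *MxCDX2* mice 1, 2 and 3 (log2 fold change 2.07, SE 0.36, edgeR adjusted p = 0.0104). *Fkbp1a* (FKBP12), which binds type I receptors and holds them inactive, went from 2507 ± 476 to 5064 ± 499 (SD, n = 3; log2 fold change 1.01, edgeR adjusted p = 0.00694). Its log2 fold change fell below the threshold without control 1 (0.97), control 2 (0.92) or *MxCDX2* mouse 3 (0.94). The inhibitors of the pathway *Ski* (0.68) and *Smad7* (0.55) passed the adjusted p-value but not the fold threshold. None of the 15 passed the adjusted p-value in the other direction, although every *MxCDX2* mouse lay below every control mouse for *Smad3* (-0.47, edgeR adjusted p = 0.103).

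All 12 genes listed as responding to TGF-β or BMP signals were tested, 3 were downregulated and none was upregulated, beside 9.03% and 4.59% of all genes, with a median log2 fold change of -0.53. *Id3*, a target of BMP signalling, had 475, 674 and 938 normalized counts in controls 1, 2 and 3, against 208, 121 and 259 in *MxCDX2* mice 1, 2 and 3, apart between the groups (log2 fold change -1.83, SE 0.37, edgeR adjusted p = 0.0163). *Bhlhe40* (-1.22) and *Tgm2*, which encodes a transglutaminase (-1.80, and -2.40 without *MxCDX2* mouse 1), were also downregulated. Of the 16 calls outside the members, those of *Acvrl1*, *Inhba*, *Nrros*, *Zfyve9*, *Id3* and *Bhlhe40* held without any single mouse. The other 10 were lost in at least 1 such fit: 3 without control 1, 5 without control 2, 3 without control 3, and 7, 8 and 10 without *MxCDX2* mice 1, 2 and 3.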

How the data were processed

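RNA from the bone marrow of 6 mice was sequenced. The authors aligned reads to GRCm38 (Ensembl release 90) using STAR 2.5, assigned them to genes using HTSeq 0.6.1 and deposited a file of raw, unnormalized counts for each mouse. Genes were matched by identifier to GENCODE M21 (37607 of 39179). Reads on no gene (9.22% to 14.1% of those assigned or unassigned by HTSeq in a mouse) and on more than 1 gene (2.99% to 3.16%) were left out of library sizes.

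Differential expression was tested with edgeR 4.0.16 in R 4.3.3 (TMM, default filterByExpr, glmQLFit and glmQLFTest, Benjamini-Hochberg over 15980 genes), and the 3 mice of a group were its replicates. Standard errors came from the quasi-likelihood F statistic of each gene. DESeq2 1.42.0, limma 3.58.1 (voom), other scalings and filters, a block for the replicate number, a test for changes beyond 1 on the log2 scale and the omission of each mouse were alternatives. Exact permutation tests used scipy 1.17.1. Exon lengths were the union of the exons in GENCODE M21.

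The genes named were every member, the genes of the other pathway lists past both thresholds (up to 6 per list), the 5 genes most like *Bambi*, and *Cdx2*. *Tgfb1*, *Ski*, *Smad7*, *Smad3*, *Orc4*, *Fpgs* and the single marker genes were named after their values were seen. The members and lists were chosen with earlier results of these data known. No pair of mice of a group had counts that agreed within sampling noise. Intervals are 95% intervals over mice, and at this depth the spread between mice limits the precision.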

Additional observations from a re-analysis of the deposited data

How the results depend on the processing

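All 10 members kept their direction in every alternative run except *Tgfbr1*, whose log2 fold change was positive with total counts (0.10) and with every gene of at least 1 count tested (0.0239), and ranged from -0.0799 to 0.0601 with each mouse left out. The 8 members past an adjusted p-value of 0.05 remained past it in edgeR, DESeq2 and limma with all mice under the tests against 0, and the call of *Tgfbr3* was lost in 4 of the 6 fits that left out a mouse (log2 fold change -2.42 to -1.55). Testing for a log2 change beyond 1 (edgeR's glmTreat) called 611 genes in all and 2 members, which are *Bambi* and *Acvr1*, by either member count. It called 0 other pathway genes, with 15 at an unadjusted p below 0.05. With a mouse left out, all-gene calls ranged from 1205 to 2406 and calls among other pathway genes from 6 to 15, the lowest without *MxCDX2* mouse 3, and the cause was not tested. Of the 5 genes named as most like *Bambi*, 3 remained with a minimum of 10 CPM. Total counts in place of TMM moved the median log2 fold change of all genes to 0.12. Same-numbered mice deviated from their group means together across genes (r 0.17, 0.29 and 0.18), and each mouse correlated best with its own number. Whether this exceeds what 3 mice per group give without a shared factor was not tested. Control numbers were given in accession order and the labels name no such factor, so the mice were not treated as pairs. With the replicate number as a block, *Bambi* had a log2 fold change of 3.97, 5 members and 16 other pathway genes passed both thresholds, and no member call changed.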

Other observations

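Of the other pathway genes that missed the thresholds, 3 were singled out after their values were seen. *Thbs1*, encoding thrombospondin 1, a platelet and matrix protein that can activate latent TGF-β, had 191280, 44888 and 67923 normalized counts in controls 1, 2 and 3, against 18910, 956 and 4309 in *MxCDX2* mice 1, 2 and 3. The groups were apart, but the spread between mice was wide, and the log2 fold change of -3.65 (SE 1.13) had an edgeR adjusted p of 0.0622. *Ltbp1*, which binds latent TGF-β in the matrix, had 1031, 657 and 5082 in the control mice and 435, 290 and 393 in the *MxCDX2* mice, with a log2 fold change of -2.60 (SE 0.77, edgeR adjusted p = 0.0549). *Smad6*, an inhibitory SMAD, had 28.1, 16.9 and 73.8 in the control mice and 69.9, 91.1 and 100.1 in the *MxCDX2* mice, so that the wild-type control lay among the *MxCDX2* mice (log2 fold change 1.13, SE 0.55, edgeR adjusted p = 0.196).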
